A study of Mus musculus with 15 samples.

Results

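Nuclear receptors are transcription factors that bind DNA as monomers, homodimers or heterodimers, and many of them are switched by a small fat-soluble ligand such as a steroid, thyroid hormone, vitamin D, an oxysterol or a bile acid. Others are called orphan receptors because no ligand is firmly assigned to them, and the retinoid X receptors act as shared partners for several of the rest. The set described here holds 38 mouse nuclear receptor genes out of the 28876 genes of the expression table. They were chosen by name, with earlier results of these data known, and every member had exactly 1 row. Nr5a1, Nr0b1, Nr2f2, the Nr4a genes and the retinoic acid receptors were not part of the set.

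RNA was sequenced from the aorta-gonad-mesonephros (AGM) region of C57BL/6 embryos, the tissue around the dorsal aorta in which the first transplantable hematopoietic stem cells of the embryo arise. The groups were the dorsal part (E9 AoD) and the ventral part (E9 AoV) at E9.5, and the dorsal part (E10 AoD), the ventral part (E10 AoV) and the urogenital ridges (E10 UGR) at E10.5. No allele or treatment was involved. Each library came from tissue pooled from between 15 and 34 embryos, with 3 libraries per group from separate experiments, so every value below is an average over all cell types of a dissected piece, and fewer cells of a type and less RNA per cell cannot be told apart.

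Of these receptors, Hnf4a, Hnf4g, Nr5a2 and Nr1h5 are best known from endoderm, liver and gut. HNF4A and its relative HNF4G drive genes of hepatocytes and intestinal epithelium, Nr5a2 encodes LRH-1, a receptor of bile acid and pluripotency programs, and Nr1h5 encodes the second FXR-type receptor of the mouse. Esrrb and Nr6a1 are known from early embryos and germ cells, where ESRRB supports the pluripotent state and NR6A1 (germ cell nuclear factor) represses pluripotency genes such as Pou5f1.

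Hnf4a, Nr5a2 and Nr1h5 had the largest ventral-to-dorsal differences at E9.5 among the members tested, so the 250 bases before their RefSeq start sites are shown, on the strand of the gene. Of the 38 members, 35 had at least 1 such window in RefSeq (build GRCm38.p6), 52 windows in all. The letters searched, on both strands, were AGGTCA (the core half-site of many nuclear receptors), TCAAGGTCA (the extended half-site, which contains the former), CAAAGTCCA (an HNF4-type site), TGATAA (for GATA factors) and AGATAA (likewise for GATA factors). Capitals mark a match. Hnf4a has an upstream start (chr2:163506607-163506856, + strand) and a downstream start (chr2:163546905-163547154, + strand), Nr1h5 has a single window (chr3:102964134-102964383, - strand), and Nr5a2 has a downstream window (chr1:136953631-136953880, - strand) and an upstream window (chr1:136960449-136960698, - strand).
Hnf4a, upstream start: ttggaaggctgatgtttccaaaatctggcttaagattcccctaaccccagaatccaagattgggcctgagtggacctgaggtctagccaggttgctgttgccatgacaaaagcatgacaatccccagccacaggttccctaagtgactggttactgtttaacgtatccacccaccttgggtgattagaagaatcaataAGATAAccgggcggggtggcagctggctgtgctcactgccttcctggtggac
Hnf4a, downstream start: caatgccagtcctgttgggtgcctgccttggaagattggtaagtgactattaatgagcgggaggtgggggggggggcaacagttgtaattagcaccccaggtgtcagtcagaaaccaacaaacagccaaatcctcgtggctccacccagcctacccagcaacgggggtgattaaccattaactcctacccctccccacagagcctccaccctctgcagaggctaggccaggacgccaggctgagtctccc
Nr1h5: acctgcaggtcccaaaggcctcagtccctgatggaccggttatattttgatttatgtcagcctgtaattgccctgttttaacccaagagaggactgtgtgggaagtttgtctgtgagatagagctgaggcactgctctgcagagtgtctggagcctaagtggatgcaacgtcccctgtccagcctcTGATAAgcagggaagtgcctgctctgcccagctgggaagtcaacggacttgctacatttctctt
Nr5a2, downstream start: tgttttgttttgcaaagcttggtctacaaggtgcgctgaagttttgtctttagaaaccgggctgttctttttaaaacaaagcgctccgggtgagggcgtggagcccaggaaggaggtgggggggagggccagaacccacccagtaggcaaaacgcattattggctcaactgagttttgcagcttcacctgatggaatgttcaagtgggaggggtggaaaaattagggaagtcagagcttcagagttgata
Nr5a2, upstream start: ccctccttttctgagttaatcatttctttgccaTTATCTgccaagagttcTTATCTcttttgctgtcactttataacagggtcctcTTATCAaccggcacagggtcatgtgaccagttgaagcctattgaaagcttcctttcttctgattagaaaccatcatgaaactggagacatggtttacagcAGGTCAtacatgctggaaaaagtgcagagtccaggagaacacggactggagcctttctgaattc

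The upstream window of Hnf4a held AGATAA at 52 bases before the start, and its downstream window held no match. Nr1h5 held TGATAA at 64 bases before its start. The upstream window of Nr5a2 held 4 matches, with AGGTCA at 64 bases, and its downstream window held none. AGGTCA or its reverse was present in 17.3% of the members' windows and in 14.02% of all 32851 promoter windows of this length. The corresponding shares were 3.85% and 7.94% for TGATAA and 7.69% and 9.99% for AGATAA. TCAAGGTCA and CAAAGTCCA were in none of the members' windows and in 0.39% and 0.38% of all windows. The RNA values below belong to whole genes and do not say which start was used.

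The libraries held 33.7 to 48.6 megareads (units of 1000000 reads), so that 3 reads were worth 0.0617 to 0.0889 RPM (reads of a gene per 1000000 reads assigned to genes), and libraries of a group correlated at r = 0.993 to 0.997 across genes (genes are not independent replicates). The pieces held RNA of neighboring tissues to unequal extents: the summed level of 12 neural tube markers was 215 to 433 RPM in E9 AoD against 9.14 to 12.6 RPM in E9 AoV, and that of 11 urogenital ridge markers was 839 to 883 RPM in E10 UGR, 436 to 472 RPM in E10 AoV and 77.6 to 106 RPM in E10 AoD. Endothelial markers summed to between 326 and 753 RPM over the groups, and no member of that list was at 0 in all libraries of a group.

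Per kilobase of exon, the receptors spanned a wide range of levels. On the mean over all 15 libraries, 5 members stood at 10 RPM per kilobase or more, 11 between 1 and 10, 13 between 0.1 and 1, and 9 under 0.1. The highest was Nr2f1 (COUP-TFI, an orphan receptor of mesenchyme and nervous system), at 45.0 RPM per kilobase. Nr2f6, a related orphan receptor, followed at 33.8, and the shared partners Rxra and Rxrb at 17.9 and 17.8. Rxra and Rxrb changed order between groups. Next were Nr1h2 (liver X receptor beta) at 12.6, Thra (thyroid hormone receptor alpha) at 8.05 and Esrra (estrogen-related receptor alpha) at 7.11. The lowest were the retinal and neural receptors Nr2e3 and Nr2e1, at 0.00766 and 0.00458 RPM per kilobase. Nr2f6 was the highest in both E9.5 tissues and Nr2f1 in all 3 E10.5 tissues. Nr6a1 had rank 5 in E9 AoD and rank 15 in E10 AoV. Nr1h5 had rank 7 in E10 AoV and rank 31 in E10 UGR.

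**Figure D1:**
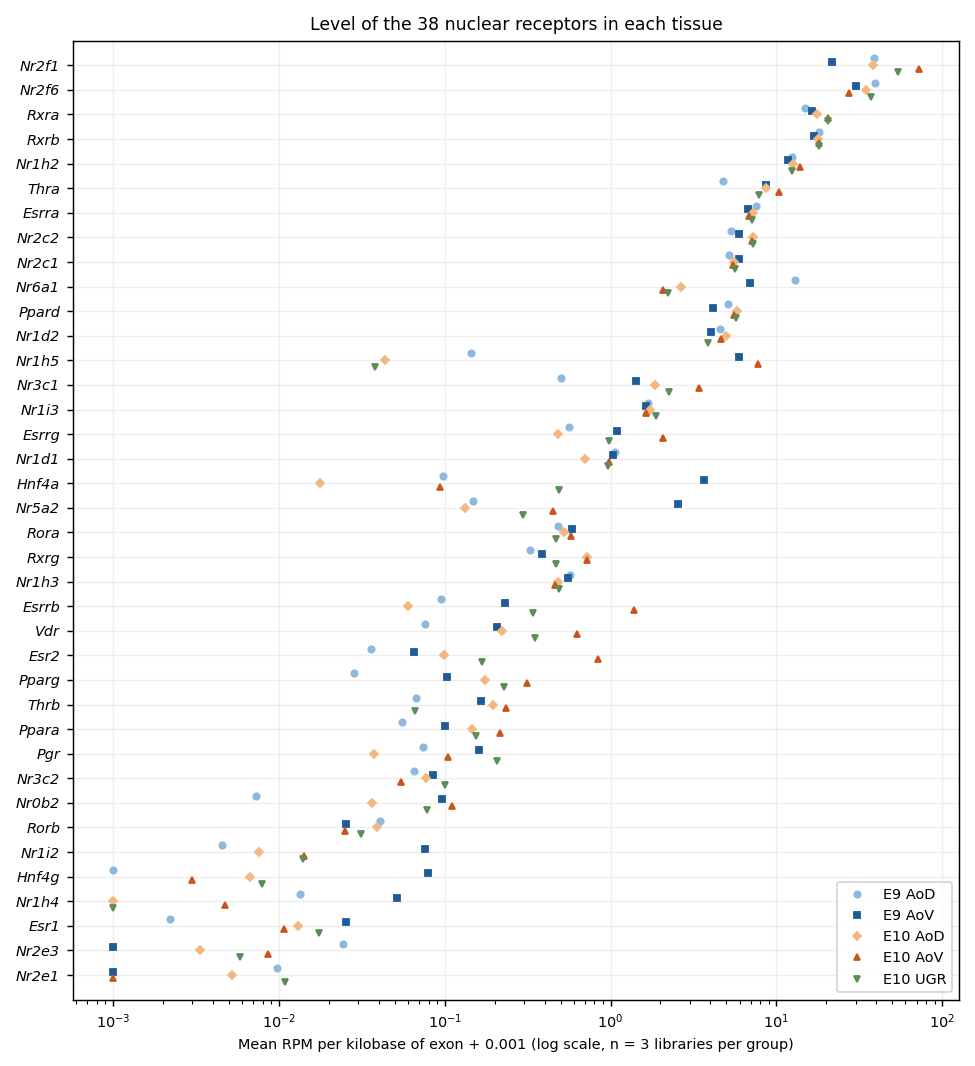
Mean RPM per kilobase of exon (x axis, log scale, with 0.001 added so that zeros can be drawn) of the 38 nuclear receptors (y axis, ordered by the mean over 15 libraries) in the 5 groups, n = 3 libraries each. Most of the upper 12 receptors have nearly superimposed markers, whereas Nr6a1, Nr1h5, Hnf4a, Nr5a2, Esrrb and Esr2 are spread widely between tissues.

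Some of these levels cannot be assigned to the receptor alone, because the counting is not stated to use strand. Exons of Ocel1 on the opposite strand cover 54.4% of the exon bases of Nr2f6, those of Tomm40l cover 51.4% of Nr1i3 (the xenobiotic receptor CAR), and those of Mrps25 cover 38.6% of Nr2c2. Thra and Nr1d1 overlap tail to tail, over 5.7% and 8.4% of their exon bases. Other overlaps took up less than 4% of a member's exon bases.

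Tests were run across all genes with limma on log2(RPM + 0.1). A gene was called when its adjusted p was under 0.05 and its log2 difference was at least 1 in size. Of the 38 members, 32 reached 0.5 RPM in at least 1 library and were tested, with 18553 genes in all. The 6 below it are described last. In all, 15 members were called in at least 1 of 6 pairwise comparisons and 17 in none. The share of all genes called in at least 1 of the 6 was not computed. Per pairwise comparison, 18.8% to 31.2% of the tested members and 7.57% to 12.6% of all tested genes were called. No called member had overlapping ranges between the groups it was called for. With 3 libraries per group this follows largely from the call and is no separate support.

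At E9.5 the receptors leaned to the ventral side. In E9 AoV against E9 AoD, 9 members were called higher (Hnf4a, Nr1h5, Nr5a2, Hnf4g, Nr3c1, Vdr, Thrb, Esrrb and Pgr) and 0 lower, where 8.32% of all tested genes were called higher and 3.47% lower. A further 10 members passed the p threshold below a 2-fold difference, 6 of them higher and 4 of them lower, and at an unadjusted p under 0.05 the limma test had 15 members higher and 6 lower. By adjusted p alone, 5108 of all 18553 tested genes were higher and 3738 lower, against 15 and 4 of the members. The members' median log2 difference was 0.24 against 0.02 over all tested genes. With quantile normalization the calls over all genes went from 1544 higher and 643 lower to 1200 higher and 820 lower, and 6 of the 9 members remained called. Pgr, Esrrb and Thrb were the 3 lost, at log2 differences of 0.80, 0.96 and 0.92. With 1 RPM added in place of 0.1, the calls of Pgr, Esrrb, Thrb, Vdr and Hnf4g were lost. Pgr was also lost without E9 AoD replicate 1, E9 AoD replicate 2 or E9 AoV replicate 1 (log2 differences of 0.90, 0.84 and 0.997), and Thrb without E9 AoD replicate 3 (0.997).

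At E10.5 the called members were again on the ventral side. Between the E10.5 aortic tissues, 8 members were called higher in the ventral one (Nr1h5, Esrrb, Esr2, Esrrg, Hnf4a, Nr5a2, Vdr and Pgr) and 0 lower, with 5.81% of all tested genes called higher and 4.29% lower. At an unadjusted p under 0.05 the limma test had 15 members higher and 2 lower. By adjusted p alone, 3756 of all 18553 tested genes were higher and 2831 lower, against 14 and 2 of the members. The members' median log2 difference was 0.19 against 0.02 over all tested genes. With 1 RPM added, Pgr, Hnf4a and Nr5a2 were lost, and with quantile normalization Pgr and Hnf4a. Pgr was also lost without E10 AoD replicate 3, at a log2 difference of 0.998. The difference between the stages was tested itself only as the interaction given below.

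**Figure D2:**
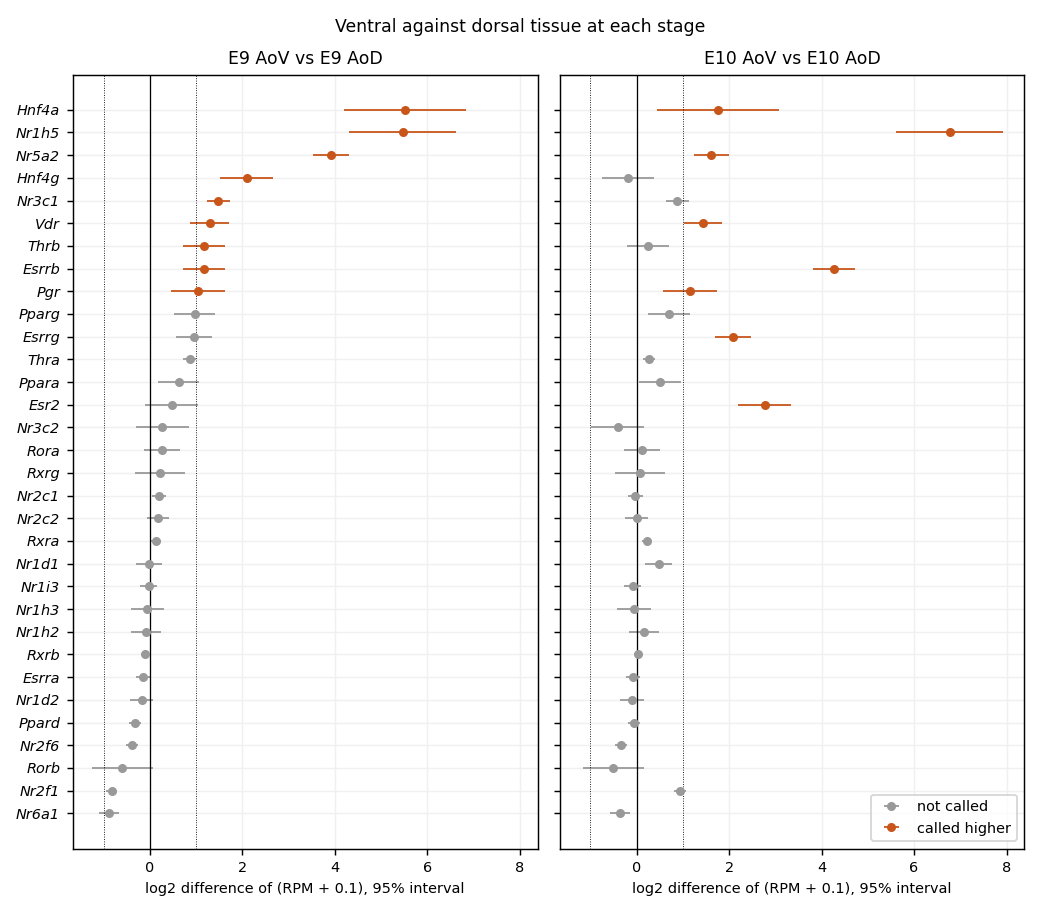
Log2 difference of (RPM + 0.1) between ventral and dorsal tissue at E9.5 (left) and E10.5 (right) for the 32 tested receptors, ordered by the E9.5 value; bars are 95% intervals of the limma fit over 15 libraries and dotted lines mark a 2-fold difference. All called members lie to the right of 0 in both panels, with Hnf4a at 5.52 and 1.76 and Nr1h5 at 5.46 and 6.77.

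From E9.5 to E10.5 the ventral tissue changed in both directions. In E10 AoV against E9 AoV, 6 members were called higher (Esr2, Esrrb, Nr2f1, Vdr, Pparg and Nr3c1) and 4 lower (Hnf4a, Nr5a2, Hnf4g and Nr6a1), with 6.04% of all tested genes called higher and 4.99% lower. The members' median log2 difference was 0.22 against 0.00 over all tested genes. With 1 RPM added, Pparg and Hnf4g were lost. In the dorsal tissue, E10 AoD against E9 AoD, 6 members were called higher (Nr3c1, Pparg, Thrb, Vdr, Ppara and Esr2) and 1 lower (Nr6a1), with 8.6% of all tested genes called higher and 4% lower. The median there was 0.07 against 0.00. Only Nr3c1 and Nr6a1 were still called with 1 RPM added. Esr2 and Ppara lay near the fold threshold: Esr2, at 1.004, was lost with quantile normalization (0.85) and without E9 AoD replicate 1 (0.85), E9 AoD replicate 2 (0.98), E10 AoD replicate 1 (0.92) or E10 AoD replicate 2 (0.97), and Ppara, at 1.09, with quantile normalization (0.89) and without E9 AoD replicate 1 (0.94) or E10 AoD replicate 1 (0.97).

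**Figure D3:**
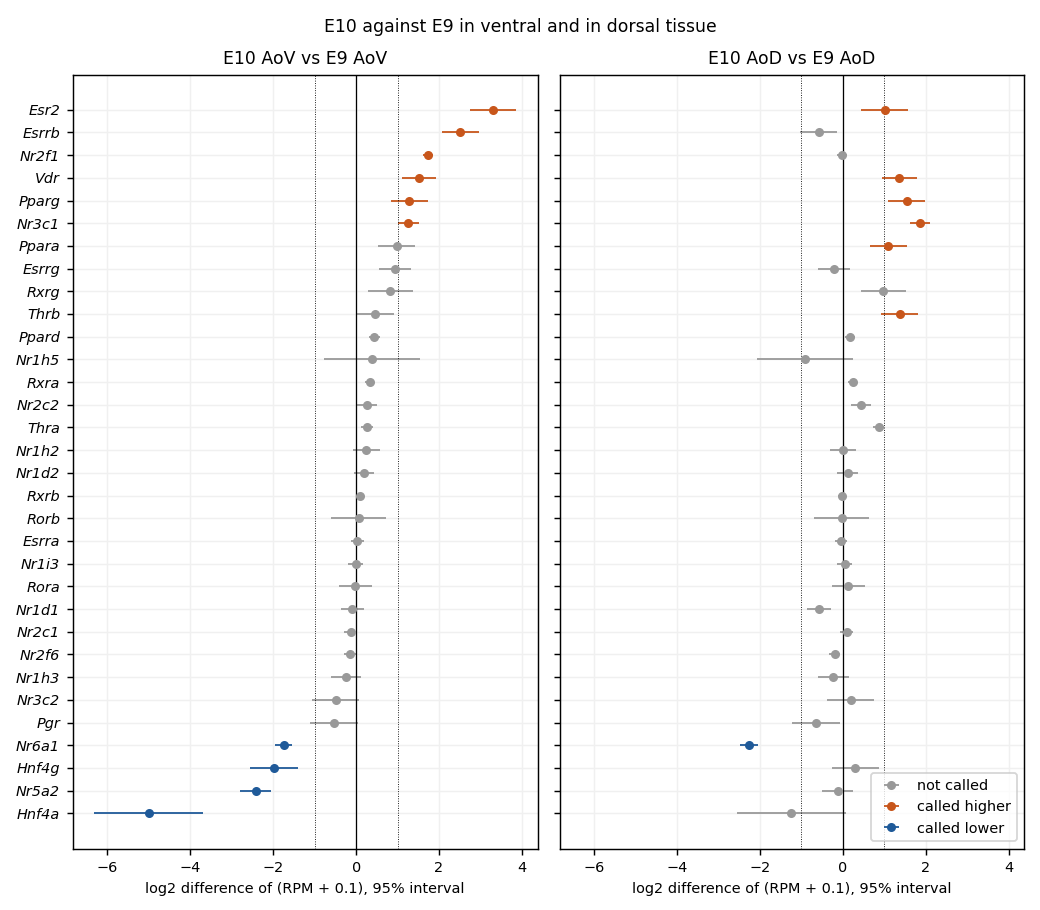
Log2 difference of (RPM + 0.1) between E10.5 and E9.5 in ventral (left) and dorsal tissue (right) for the 32 tested receptors, ordered by the ventral value, with 95% intervals of the limma fit over 15 libraries; dotted lines mark a 2-fold difference. Hnf4a is lowest in the left panel at -5.01, Esr2 is highest there at 3.30, and Nr6a1 is called lower in both panels at -1.75 and -2.27.

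Against the urogenital ridges, most called members were higher in the ventral tissue and lower in the dorsal tissue. In E10 AoV against E10 UGR, 5 members were called higher (Nr1h5, Esr2, Esrrb, Thrb and Esrrg) and 1 lower (Hnf4a), with 3.84% of all tested genes called higher and 3.73% lower. In E10 AoD against E10 UGR, 1 member was called higher (Thrb) and 5 lower (Hnf4a, Esrrb, Pgr, Nr5a2 and Esrrg), with 4.76% of all tested genes called higher and 6.56% lower. The medians of the members were 0.09 and -0.06, against -0.05 and -0.05 over all tested genes. Both comparisons share the E10 UGR libraries. Esrrg lay near the threshold in both: against E10 AoV (1.06) it was lost with 1 RPM added (0.96) and without E10 AoV replicate 2 (0.98) or E10 UGR replicate 3 (0.998), and against E10 AoD (-1.03) with 1 RPM added (-0.84), with quantile normalization (-0.91), with median ratio scaling (-0.97) and without E10 AoD replicate 1 (-0.98), E10 AoD replicate 3 (-0.91) or E10 UGR replicate 1 (-0.98). Nr5a2 (-1.05) was lost with the same scalings (-0.92 and -0.995), with 1 RPM added (-0.51) and without E10 AoD replicate 1 (-0.97), E10 AoD replicate 3 (-0.96) or E10 UGR replicate 3 (-0.99). With 1 RPM added, Thrb was lost in both comparisons and Pgr in the second.

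The interaction of stage and position, the E9.5-to-E10.5 change in AoV minus that in AoD, was called for 7 members. It was more positive in AoV for 4 (Esrrb, Esr2, Nr2f1 and Esrrg), where 4.12% of all tested genes were, and more negative in AoV for 3 (Hnf4a, Nr5a2 and Hnf4g), where 6.89% of all tested genes were. Esrrg (1.15) fell under the fold threshold without E9 AoD replicate 2, at 0.97. Hnf4g was lost with 1 RPM added, at -0.44.

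Hnf4a (NCBIM37 chr2:163332544-163398646, + strand) was far higher in the E9.5 ventral tissue than in the other tissues. Its RPM was 17.0, 23.0 and 14.9 in E9 AoV, 0.442, 1.02 and 0 in E9 AoD, 0.0512, 0.201 and 0 in E10 AoD, 0.415, 0.512 and 0.466 in E10 AoV, and 2.55, 2.67 and 2.14 in E10 UGR. The E9 AoV libraries lay above all 12 others, and E10 UGR lay above the remaining 9. The log2 difference was 5.52 (SE 0.617, adjusted p = 3.74e-06) in E9 AoV against E9 AoD and -5.01 (adjusted p = 1.1e-05) in E10 AoV against E9 AoV. It was -2.18 (adjusted p = 0.0152) for E10 AoV and -3.94 (adjusted p = 0.000114) for E10 AoD, each against E10 UGR. The smaller excess of E10 AoV over E10 AoD, 1.76 (adjusted p = 0.0372), was not firm. Its adjusted p rose to 0.0655 with quantile normalization, 0.0848 with no filter on low values and 0.1 with 1 RPM added. It rose to 0.0932 without E10 AoD replicate 1, to 0.144 without E10 AoD replicate 3, and to between 0.0726 and 0.0953 without E10 AoV replicates 1, 2 or 3. The interaction for Hnf4a was -3.76 (SE 0.872, adjusted p = 0.00455).

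Hnf4g (chr3:3508030-3659775, + strand) was detected above 3 reads in the E9 AoV libraries alone, at 0.251, 0.51 and 0.261 RPM. It was at 0 in all 3 E9 AoD libraries, and against a level of 3 reads in each of those, 0.0728 RPM on average, E9 AoV was at least 4.68-fold higher. Its highest value in the other groups was 0.0617 RPM, in E10 UGR. The adjusted p in limma was 1.41e-05 for E9 AoV against E9 AoD, 2.64e-05 for E10 AoV against E9 AoV and 0.000351 for the interaction. Hnf4g was tested only because E9 AoV replicate 2, at 0.51 RPM, reached the filter of 0.5 RPM. It thus entered the tests through the group where it was high, and these p-values are no independent support for that difference.

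Nr5a2 (chr1:138740161-138857004, - strand) was at 8.66, 11.5 and 9.25 RPM in E9 AoV. It was at 0.467, 0.725 and 0.492 RPM in E9 AoD, 0.436, 0.652 and 0.426 RPM in E10 AoD, 1.69, 1.87 and 1.63 RPM in E10 AoV, and 1.16, 1.01 and 1.24 RPM in E10 UGR. E9 AoV was highest, both dorsal groups were lowest and overlapped each other, and E10 AoV lay above E10 UGR. The log2 difference from dorsal tissue was 3.91 (SE 0.178, adjusted p = 8.76e-10) at E9.5 and 1.62 (SE 0.178, adjusted p = 4.03e-06) at E10.5. The ventral level fell by 2.43 on the log2 scale between the stages (adjusted p = 5.78e-08), and the interaction was -2.30 (adjusted p = 9.11e-06).

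Nr1h5 (chr3:102743581-102768056, - strand) was ventral at both stages. Its RPM was 19.0, 19.0 and 12.5 in E9 AoV and 23.7, 23.8 and 18.1 in E10 AoV. It was 0.934, 0.215 and 0.0641 in E9 AoD, 0.0256, 0.0753 and 0.26 in E10 AoD, and 0.0296, 0.0617 and 0.225 in E10 UGR. The ventral libraries of both stages overlapped, and each lay far above each of the 9 other libraries. The log2 difference in E9 AoV against E9 AoD was 5.46 (SE 0.542, adjusted p = 1.12e-06). Some dorsal and ridge libraries were under 3 reads, so the size of these fitted differences depends on the 0.1 RPM that was added. The stage difference within AoV, 0.39 (95% interval -0.77 to 1.55), did not pass the test. Hnf4a, Hnf4g and Nr5a2 thus fell in AoV between the stages, and Nr1h5 did not pass the test there.

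**Figure D4:**
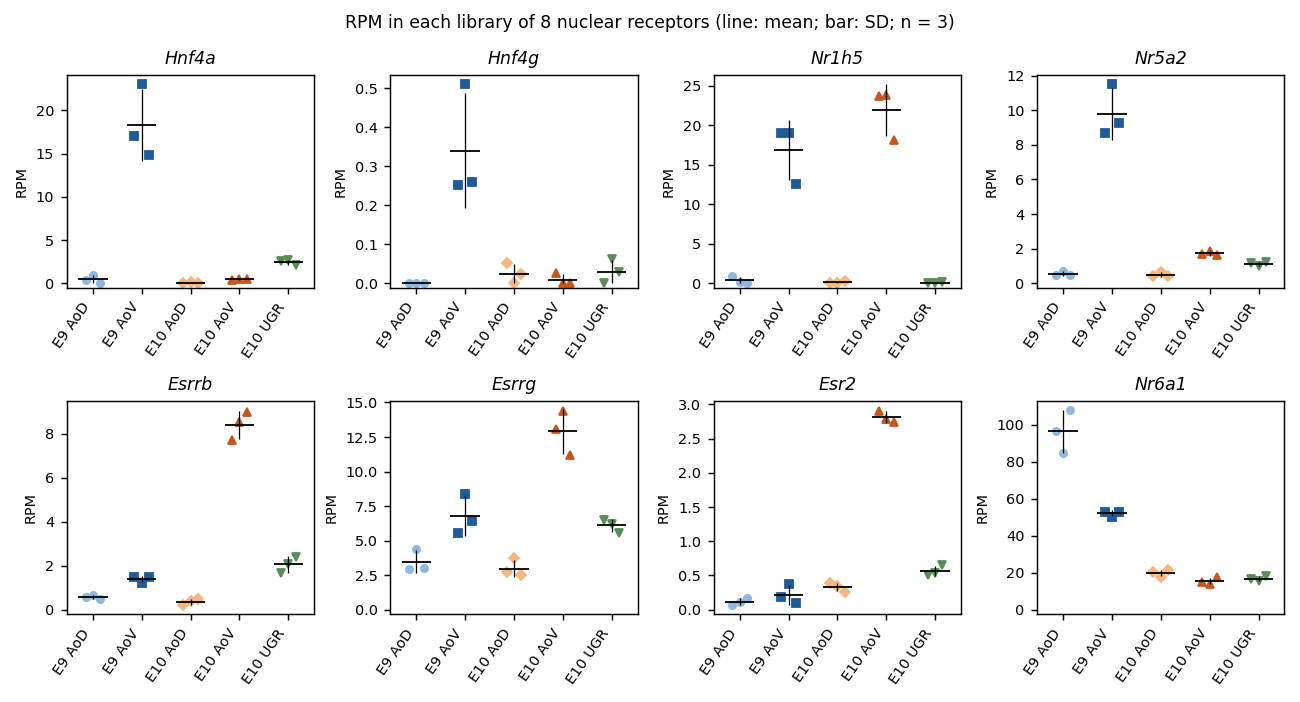
RPM (y axis, linear, a scale for each panel) of 8 receptors in each of the 15 libraries, by group; points are libraries, horizontal lines group means and vertical bars SD, n = 3. Hnf4a, Hnf4g and Nr5a2 peak in E9 AoV, Nr1h5 is high in both ventral groups, Esrrb, Esrrg and Esr2 peak in E10 AoV, and Nr6a1 is highest in E9 AoD.

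Genes known as targets of HNF4A or of the xenobiotic receptors moved in the same direction as Hnf4a in the comparisons with E9 AoV. Of 10 tested genes of that list, 10 were called higher in E9 AoV against E9 AoD, with a median log2 difference of 4.76 against 0.02 over all tested genes, and 10 were called lower in E10 AoV against E9 AoV, with a median of -5.60. Of all tested genes, 8.32% were called higher in the former comparison and 4.99% lower in the latter. Apoa4, Apoc2 and F7 had means of 7.33, 2.41 and 0.641 RPM in E9 AoV and at most 0.0543, 0.0417 and 0.265 RPM elsewhere. They entered the tests through E9 AoV, where they were high, so their calls are no independent support for that difference. The largest changes were those of Ttr, the transthyretin gene (0.477 RPM in E9 AoD, 28.7 in E9 AoV and 0.15 in E10 AoV on average), and Apoa1, the main apolipoprotein of high-density lipoprotein (0.425, 28.4 and 0.183 RPM). Against E10 UGR, where Hnf4a was called lower in both aortic tissues, few of the targets were called. In E10 AoV 2 of the 10 were called higher and 0 lower (2 and 1 at an unadjusted p under 0.05 in limma), and in E10 AoD 0 higher and 1 lower (0 and 2), with medians of -0.01 and 0.07 against -0.05 and -0.05 over all tested genes. Their sum over 15 genes with a row was 2.24 to 2.51 RPM in E10 UGR and 2.56 to 3.53 RPM in E10 AoV. Markers of hepatic and gut endoderm were also highest in E9 AoV. Their sum over 18 genes was 798 to 1165 RPM in E9 AoV, 77.8 to 110 RPM in E9 AoD, 50.9 to 57.8 RPM in E10 AoD, 49.2 to 52.3 RPM in E10 AoV and 161 to 165 RPM in E10 UGR. Of these 18 markers, 15 were called higher in E9 AoV than in E9 AoD and 17 lower in E10 AoV than in E9 AoV. Foxa3, Spink3 and Fga had means of 3.96, 4.70 and 6.48 RPM in E9 AoV and at most 0.1003, 0.0892 and 0.0854 RPM elsewhere. They too entered the tests through E9 AoV. Spink3 was at 0 in all E10 AoD libraries and Fga in all E10 AoV libraries. Both lists hold Ttr, Apoa1 and Apob. The summed endoderm markers were lower in each E10 AoV library than in each library of the other groups but E10 AoD, which they overlapped. The Nr1h5 values of both ventral groups overlapped. The part of endoderm content in the Hnf4a, Hnf4g, Nr5a2 and Nr1h5 values was not tested.

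Among the estrogen-related receptors, Esrrb and Esrrg peaked in E10 AoV and Esrra was level. Esrrb (chr12:87702067-87862578, + strand) was at 7.71, 8.54 and 8.99 RPM in E10 AoV. It was at 1.69, 2.06 and 2.42 RPM in E10 UGR, 1.48, 1.23 and 1.47 RPM in E9 AoV, 0.565, 0.672 and 0.47 RPM in E9 AoD, and 0.205, 0.376 and 0.497 RPM in E10 AoD. E10 AoV stood above the 12 other libraries, and the dorsal groups overlapped. Esrrb was higher in E10 AoV than in E10 AoD by 4.26 (SE 0.211, adjusted p = 1.28e-09) and than in E9 AoV by 2.51 (adjusted p = 2.31e-07) on the log2 scale. Its interaction was 3.10 (SE 0.299, adjusted p = 2.8e-06). Esrrg (chr1:189432670-190038764, + strand), a receptor of oxidative metabolism, was at 13.1, 14.4 and 11.2 RPM in E10 AoV and 2.74, 3.71 and 2.49 RPM in E10 AoD. It was at 5.54, 8.35 and 6.39 RPM in E9 AoV, 2.97, 4.41 and 3.04 RPM in E9 AoD, and 6.52, 6.23 and 5.55 RPM in E10 UGR. The E10 AoV libraries were the highest, and E9 AoV and E10 UGR overlapped. The log2 excess of Esrrg in E10 AoV over E10 AoD was 2.09 (SE 0.182, adjusted p = 3.59e-07). Esrra lay between 15.9 and 19.9 RPM in all libraries and was called nowhere.

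Esr2 (estrogen receptor beta, chr12:77221406-77278246, - strand) was also highest in E10 AoV, at a lower level than Esrrb. Its RPM was 2.91, 2.79 and 2.75 in E10 AoV, 0.504, 0.535 and 0.648 in E10 UGR, 0.384, 0.351 and 0.26 in E10 AoD, 0.182, 0.371 and 0.0951 in E9 AoV, and 0.0737, 0.107 and 0.171 in E9 AoD. E10 AoV was set off from all other libraries, and the E9.5 groups overlapped. The log2 difference was 3.30 (SE 0.265, adjusted p = 1.44e-07) against E9 AoV, 2.77 (adjusted p = 9.59e-07) against E10 AoD and 2.14 (adjusted p = 1.94e-05) against E10 UGR. The interaction was 2.30 (adjusted p = 0.00031). Germ cell markers were highest in the same group: the sum over 10 genes was 34.0 to 37.97 RPM in E10 AoV, 9.80 to 10.6 RPM in E10 UGR, 7.48 to 8.504 RPM in E9 AoV, 4.13 to 5.48 RPM in E9 AoD and 3.76 to 4.17 RPM in E10 AoD, and none was at 0 in all libraries of a group. Of the 10, 9 were called in E10 AoV over E10 AoD and 8 over E9 AoV, all of them higher in E10 AoV. Of all tested genes, 5.81% and 6.04% were called higher there. Dppa2, Tcl1 and Prdm14 had means of 0.647, 1.09 and 1.19 RPM in E10 AoV and at most 0.17, 0.183 and 0.193 RPM elsewhere. They entered the tests through E10 AoV, so their calls are no independent support for that difference. The part of germ cell content in the Esrrb, Esrrg and Esr2 values was not tested. Of 9 tested genes listed as estrogen, progesterone or thyroid hormone targets, 3 were called between the ventral stages, all lower at E10.5, with Ihh and Dio3 at the largest falls, and in E10 AoV against E10 AoD 1 was higher (Hr) and 2 lower (Atp2a1 and Greb1). At an unadjusted p under 0.05, without the fold threshold, limma had 2 higher and 4 lower in the former comparison and 6 higher and 2 lower in the latter. The medians were -0.05 and 0.46, against -0.00163 and 0.0174 over all tested genes.

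Nr6a1 (chr2:38578890-38783208, - strand) fell with stage in both tissues. Its RPM was 96.8, 84.7 and 108 in E9 AoD, 52.9, 50.2 and 53.0 in E9 AoV, 20.6, 17.9 and 21.2 in E10 AoD, 14.8, 14.1 and 17.5 in E10 AoV, and 16.5, 15.4 and 18.4 in E10 UGR. All 6 E9.5 libraries lay above all 9 E10.5 libraries, and the dorsal libraries lay above the ventral ones at both stages. The log2 difference between the stages was -2.27 (SE 0.0995, adjusted p = 4.87e-10) in AoD and -1.75 (adjusted p = 5.11e-09) in AoV. The interaction was 0.52 (adjusted p = 0.0121), under the fold threshold.

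Nr2f1 was the other abundant receptor that changed. Its mean RPM was 104 ± 6.06 (SD, n = 3) in E9 AoV and 345 ± 11.9 in E10 AoV, whereas AoD held 184 ± 9.64 at E9.5 and 181 ± 4.62 at E10.5, and E10 UGR held 257 ± 19.1. The ventral rise was 1.74 on the log2 scale (SE 0.0591, adjusted p = 5.7e-11) and the interaction was 1.76 (adjusted p = 8.74e-09). Ventral tissue thus went from below dorsal tissue at E9.5, by a log2 difference of -0.83 (adjusted p = 3.95e-08), to above it at E10.5, by 0.93 (adjusted p = 1.37e-08), both under the fold threshold. The other NR2 orphan receptors varied less. Nr2f6 was lower in ventral than in dorsal tissue by less than 2-fold at both stages (-0.39 and -0.34), Nr2c2 ranged from 39.9 to 76.7 RPM and Nr2c1 from 22.8 to 30.4 RPM over all libraries, and none was called.

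The glucocorticoid receptor gene Nr3c1 rose with stage in both tissues. In AoD its mean RPM was 3.73 ± 0.641 at E9.5 and 13.7 ± 0.755 at E10.5, in AoV it was 10.49 ± 1.16 and 25.3 ± 2.65, and E10 UGR held 16.8 ± 0.379 (SD, n = 3 each). The log2 rise was 1.86 (SE 0.115, adjusted p = 7.62e-09) in AoD and 1.26 (adjusted p = 5.24e-07) in AoV, and the ventral excess was 1.48 at E9.5 (adjusted p = 9.31e-08) and 0.88 at E10.5, the latter under the fold threshold. Of 10 tested glucocorticoid target genes, 3 were called between the dorsal stages, 2 of them higher and 1 lower at E10.5: Dusp1, a MAP kinase phosphatase gene, and Cdkn1c, a cell cycle inhibitor gene, rose by 1.95 and 1.72, and Zbtb16 fell by 2.004 on the log2 scale. In E10 AoV against E9 AoV, Dusp1 was the 1 gene called, at 1.96. Without the fold threshold, limma had 6 of the 10 higher and 1 lower at an unadjusted p under 0.05 in each tissue. Their medians were 0.46 in AoD and 0.31 in AoV, against -0.00187 and -0.00163 over all tested genes. By adjusted p alone, 5560 of all 18553 tested genes were higher and 5170 lower between the dorsal stages. Between the ventral stages these counts were 4373 and 4164. Whether these targets followed Nr3c1 was not tested. Fkbp5, Tsc22d3 and Per1, on the same list, were called in neither stage comparison. Hsd11b2, which inactivates glucocorticoids, was at 149 RPM in E9 AoV, against 44.1 RPM in E9 AoD and 64.7 RPM in E10 AoV, and was called higher in E9 AoV than in E9 AoD and lower in E10 AoV than in E9 AoV. Pgr, the progesterone receptor gene, was at 0.174 ± 0.0688 RPM in E10 AoD and 0.978 ± 0.242 RPM in E10 UGR, a log2 difference of -1.98 (adjusted p = 3.15e-05), and its other group means were 0.346, 0.766 and 0.497 RPM in E9 AoD, E9 AoV and E10 AoV. Nr3c2, the mineralocorticoid receptor gene, stayed between 0.23 and 0.788 RPM and was not called.

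Vdr, the vitamin D receptor gene, was higher in ventral than in dorsal tissue and higher at E10.5 than at E9.5. Its mean RPM rose from 0.424 ± 0.112 to 1.25 ± 0.353 in AoD and from 1.16 ± 0.05 to 3.52 ± 0.596 in AoV, and E10 UGR held 1.98 ± 0.18 RPM. The 4 log2 differences among the aortic tissues lay between 1.29 and 1.51, all called. Thrb, the thyroid hormone receptor beta gene, was at 0.44 ± 0.111 RPM in E9 AoD and 0.432 ± 0.142 RPM in E10 UGR, and at 1.09 ± 0.0451, 1.29 ± 0.279 and 1.54 ± 0.147 RPM in E9 AoV, E10 AoD and E10 AoV. It was the member called higher in both aortic tissues than in E10 UGR, by 1.65 (adjusted p = 2.71e-05) and 1.40 (adjusted p = 8.01e-05). Thra showed the same order at E9.5, at 21.9 ± 0.781 RPM in E9 AoD and 39.9 ± 1.99 RPM in E9 AoV, but its log2 difference of 0.86 (adjusted p = 6.12e-08) was under the fold threshold, as were its others. Of the deiodinase genes, Dio3, which inactivates thyroid hormone, fell by 1.505 on the log2 scale in AoD and fell by 2.12 in AoV between the stages.

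Of the peroxisome proliferator-activated receptors, the low members Pparg and Ppara were called higher with stage and the abundant Ppard was not. Pparg, known from fat cells and macrophages, went from 0.0546 ± 0.0305 to 0.347 ± 0.069 RPM in AoD (log2 difference 1.54, adjusted p = 1.93e-05) and from 0.202 ± 0.0599 to 0.623 ± 0.0361 RPM in AoV (1.28, adjusted p = 0.000167). Ppara, the receptor of fatty acid oxidation, went from 0.208 ± 0.0529 to 0.555 ± 0.0989 RPM in AoD (1.09, adjusted p = 0.000403) and from 0.38 ± 0.136 to 0.821 ± 0.032 RPM in AoV, where its difference of 0.98 was just under the fold threshold. Ppard stayed between 18.6 and 28.6 RPM. Of 11 tested PPAR target genes, 2 were called higher and 0 lower in AoD (8 and 2 at an unadjusted p under 0.05 in limma), and 2 higher and 1 lower in AoV. By adjusted p alone, 5560 of all 18553 tested genes were higher and 5170 lower between the dorsal stages. Cpt1a, the gate of mitochondrial fatty acid oxidation, was called higher in both, at 1.15 and 7.71 RPM in E9 AoD and E10 AoD. Fabp1, also an endoderm gene, was the 1 lower in AoV, where its mean went from 1.49 to 0.067 RPM. Macrophage markers rose as well: their sum over 7 genes with a row was 5.15 to 9.49 RPM in E9 AoD and 10.2 to 12.5 RPM in E9 AoV, against 59.3 to 67.6 RPM in E10 AoD, 46.8 to 54.1 RPM in E10 AoV and 35.5 to 41.5 RPM in E10 UGR. None of the 7 was at 0 in all libraries of a group, and their part in the Pparg values was not tested.

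The remaining tested members were called in no pairwise comparison. Rxra ranged from 79.2 to 117 RPM, Rxrb from 60.0 to 69.5 RPM and Rxrg from 0.699 to 2.53 RPM over all 15 libraries. Of the oxysterol receptors, Nr1h2 ranged from 33.4 to 49.0 RPM and Nr1h3 (liver X receptor alpha) from 0.946 to 1.56 RPM. Nr1i3 ranged from 6.56 to 8.60 RPM, with the overlap noted above. Of the circadian receptors, the REV-ERB genes Nr1d1 and Nr1d2 ranged from 1.90 to 3.54 RPM and from 17.8 to 28.3 RPM, and Rora and Rorb from 5.36 to 9.44 RPM and from 0.143 to 0.577 RPM. Of these, Nr1d1 passed the p threshold in E10 AoD against E9 AoD with a log2 difference of -0.59 (adjusted p = 0.0017). Of 13 tested clock and REV-ERB or ROR target genes, 0 were called in E10 AoV against E9 AoV and 1 in E10 AoD against E9 AoD, Bhlhe40, which rose by 1.84. At an unadjusted p under 0.05, without the fold threshold, the limma test had 8 of the 13 in AoV. Of 24 tested coregulators of nuclear receptors, 0 were called in either stage comparison or between E9 AoV and E9 AoD. Without the fold threshold, 10 in AoV and 11 in AoD between the stages, and 11 between the E9.5 tissues, had an unadjusted p under 0.05 in limma. By adjusted p alone, 4373 of all 18553 tested genes were higher and 4164 lower between the ventral stages. Between the dorsal stages these counts were 5560 and 5170, and between the E9.5 tissues 5108 and 3738. Ppargc1b, a coactivator of mitochondrial genes, was the 1 coregulator called between the E10.5 tissues (2.01 RPM in E10 AoV, 0.861 in E10 AoD and 4.21 in E10 UGR). Of 11 tested LXR and FXR target genes, Fgf15 was the 1 called in E10 AoV against E9 AoV, at 0.0163 and 0.62 RPM, and it was called lower in E9 AoV than in E9 AoD, where it was at 11.4 RPM. At an unadjusted p under 0.05, without the fold threshold, limma had 3 of the 11 higher and 4 lower between the ventral stages.

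The 6 untested members did not reach 0.5 RPM in any library. Their highest values were 0.41 RPM for Esr1 (estrogen receptor alpha), 0.278 RPM for Nr1i2 (the pregnane X receptor), 0.182 RPM for Nr0b2 (the corepressor SHP), 0.119 RPM for Nr1h4 (the bile acid receptor FXR), 0.0983 RPM for Nr2e3 and 0.0822 RPM for Nr2e1. Nr1h4 was at 0.114, 0.116 and 0.119 RPM in E9 AoV and at 0 in all E10 AoD and E10 UGR libraries, which at 3 reads per library allows up to 0.0744 and 0.0784 RPM on average. Nr1i2 was at 0.228, 0.278 and 0.0713 RPM in E9 AoV and at most 0.0519 RPM elsewhere. Esr1 was at 0.41, 0.255 and 0.333 RPM in E9 AoV and at 0.0492, 0 and 0 RPM in E9 AoD. Differences between these values were not tested under the filter used.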

How the data were processed

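Values came from 1 table of the whole series, in which the authors deposited RPM (reads of a gene per 1000000 assigned reads) for 28876 genes in 15 libraries, 3 for each of 5 groups given by the sample titles. Per the study's methods, single-end reads were aligned to NCBIM37 with TopHat and Bowtie (version 0.12.3 in the submitters' processing notes), summed per Ensembl gene with multimapping reads split into fractions, and scaled to RPM. The deposited table also holds the authors' log2 fold changes and adjusted p-values from DESeq for 6 comparisons, which were not used. The RPM steps put depth at 33.7 to 48.6 megareads, but only 63.0 to 65.3% of low values were whole reads (within 0.1 read), so counts were not recovered and no count test was run. Whether counting used strand is not given in the sources used here.

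Log2(RPM + 0.1) was fitted with limma 3.58.1 in R 4.3.3 (1 mean per group, 10 residual degrees of freedom, empirical Bayes with an intensity trend) over the 18553 genes that reached 0.5 RPM in at least 1 library, with Benjamini-Hochberg adjustment over all of them. Calls needed an adjusted p under 0.05 and a 2-fold difference. Fold changes are on the log2(RPM + 0.1) scale and understate those of low genes. The fit was tested on simulated data. Members with a called log2 difference of at least 2 in size are given by library, other called members by group mean, uncalled members by range, and untested members by their highest RPM. Of each related list, up to 2 called genes in each direction are named, by size. Dusp1, Cdkn1c, Fkbp5, Tsc22d3, Per1 and Hsd11b2 were in part named with their values known. The members and the lists were chosen with earlier results of these data known, and the lists are described by counts and medians without a test. A member or listed gene could reach 0.5 RPM only in the group where it was high. Its call toward that group is then no independent support. Counts at an unadjusted p have no share of all genes at that threshold beside them. Many genes passed an adjusted p without the fold threshold, as given below.

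Exon lengths and overlaps came from the GENCODE annotation of NCBIM37, which held 95.3% of the table's gene IDs and all 38 members. Promoter windows came from RefSeq (GRCm38.p6), with no coordinates converted between builds. Libraries came from pools of embryos in separate experiments, and p-values measure the spread between these pools. Deviations from the group means of same-numbered E9 AoD and E9 AoV libraries were correlated in all 3 pairs (0.19 to 0.452), so these numbers were taken to pair the E9.5 tissues, from the data and not the labels. A replicate block changed no call there. Alternatives tried were 1 RPM added in place of 0.1, no filter, quantile normalization, median ratio scaling, only the groups compared, no fold threshold, a replicate block (over all libraries or within each stage), and leaving out each library.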

Additional observations from a re-analysis of the deposited data

Results flagged for a closer look

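The stage change differed between ventral and dorsal tissue for 7 receptors, by the limma test of the interaction itself, and each value below is the E9.5-to-E10.5 log2 change in AoV minus that in AoD. Esrrb had the largest positive value, 3.10. It was at 7.71 to 8.99 RPM in E10 AoV against 1.23 to 1.48 RPM in E9 AoV while the dorsal groups overlapped. Esr2 followed at 2.30. Nr2f1, the most abundant receptor per kilobase, was at 1.76, with dorsal means of 184 and 181 RPM. Esrrg was at 1.15, and at 0.97 without E9 AoD replicate 2. Hnf4a had the most negative value, -3.76. Nr5a2 was at -2.30, and Hnf4g, which rests on fewer than 1 RPM in every library, at -2.28.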

How the results depend on the processing

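No direction reversed under any alternative. With no fold threshold the number of members called went from 10 to 16 in E10 AoV against E9 AoV, 7 to 15 in E10 AoD against E9 AoD, 9 to 19 in E9 AoV against E9 AoD, 8 to 16 in E10 AoV against E10 AoD, 6 to 14 in E10 AoV against E10 UGR, 6 to 11 in E10 AoD against E10 UGR, and 7 to 12 for the interaction. Many other genes passed as well. Of all 18553 tested genes, 4373 were then called higher and 4164 lower in the first comparison, and 5560 and 5170 in the second. In the same order, the other counts were 5108 and 3738, 3756 and 2831, 2321 and 3084, 2687 and 4595, and 2192 and 3022. With 1 RPM added in place of 0.1 the number of members called went to 2 in E10 AoD against E9 AoD, 4 in E9 AoV against E9 AoD, 5 in E10 AoV against E10 AoD and 2 in E10 AoD against E10 UGR, a larger pseudocount shrinking the log2 differences of low genes. Leaving out 1 library at a time gave, in the same order of comparisons, 10 to 12, 5 to 9, 8 to 10, 6 to 8, 5 to 6, 4 to 6 and 6 to 8 members. Of the 53 calls of a member in a comparison, 22 were lost with 1 RPM added, 9 with quantile normalization, 2 with median ratio scaling, 1 with no filter and 0 with only the groups compared. With no filter, the untested Esr1, Nr1i2, Nr1h4 and Nr2e3 also gained calls. The replicate block kept all 53 calls and gave 10, 8, 9, 8, 6, 6 and 7 members, Hnf4a being gained in E10 AoD against E9 AoD. A replicate block within each stage, chosen after seeing the data, kept all 53 calls and gave the same 7 counts, with Hnf4a gained again. Between the stages, same-numbered libraries were correlated over 0.1 in 2 of 18 pairs (-0.138 to 0.216) and share only a number. Among the E10.5 tissues the correlation was over 0.1 in 2 of 3 pairs of each 2 tissues, which does not establish pairing, and 13 of 15 libraries correlated best, on average, with their own number. Ordered by the longest transcript in place of all exons, 9 of the 10 highest members per kilobase were shared. Values near 0.0617 to 0.0889 RPM are about 3 reads, and at that level differences between receptors such as Nr1h4, Nr2e1 and Nr2e3 could not be resolved.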

Other observations

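Enzymes that make or inactivate receptor ligands, a list of 28 genes of which 15 were tested, changed in both directions. In E10 AoV against E9 AoV, 3 were called higher and 3 lower. The largest rises were those of Hsd3b1 (0.657 to 3.48 RPM) and Cyp11a1 (0.194 to 0.93 RPM), both of steroid synthesis, and the largest falls those of Ttr and Dio3. In E10 AoD against E9 AoD, 3 were higher and 2 lower, with Hsd3b6 (2.33 to 12.1 RPM) and Cyp7b1, an oxysterol hydroxylase (1.28 to 4.29 RPM), at the largest rises. In E9 AoV against E9 AoD, 4 were higher and 0 lower (6 and 1 at an unadjusted p under 0.05 in limma). In E10 AoV against E10 AoD, 2 were higher and 2 lower: Hsd3b1 and Cyp11a1 were at 3.48 and 0.93 RPM in E10 AoV against 0.386 and 0.0891 RPM in E10 AoD, and Dio2, which activates thyroid hormone, was at 0.34 against 1.43 RPM and Cyp7b1 at 1.42 against 4.29 RPM. Hsd3b1 and Cyp11a1 were also higher in E10 UGR, at 1.51 and 1.71 RPM, than in E10 AoD. Urogenital ridge markers summed to 436 to 472 RPM in E10 AoV and 839 to 883 RPM in E10 UGR against 77.6 to 106 RPM in E10 AoD, and their part in these differences was not tested. The steroid synthesis genes Cyp11b1, Cyp21a1 and Cyp17a1 were at 0 in all 3 E9 AoD libraries, and Cyp11b1 also in all E9 AoV and E10 AoD libraries. In the other groups they were hardly higher: Cyp11b1 and Cyp21a1 had means of at most 0.0544 RPM, under the level of 3 reads. Cyp17a1 had a mean of 0.294 RPM in E9 AoV and at most 0.0355 RPM in any other group.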
